A study of Homo sapiens with 6 samples.

Results

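Clustered histone genes supply the histones packed onto newly copied DNA, and 64 of them had at least 1 read in RNA sequencing of 6 libraries from the human lung cancer lines HCC15 and A427. Members were the genes whose symbol begins with HIST1H to HIST4H, 64 of the 73 such genes listed and of 23686 genes in all. They comprised 6 genes of class H1, 16 of H2A, 17 of H2B, 12 of H3 and 13 of H4. By cluster, 48 bear HIST1 symbols, 13 HIST2, 2 HIST3 and 1 HIST4. Each line, an established non-small-cell lung cancer line in RPMI medium with 5% FBS, was transfected with LGR6 siRNA 2, LGR6 siRNA 4 or a control siRNA named Tax and collected at 48 h. There was 1 library per line and siRNA, so every group is a single library. LGR6, a receptor for R-spondins, had 39 and 77 reads with siRNA 2 and siRNA 4 in HCC15, against 257 with Tax siRNA. In A427 it had 0 and 0 reads with the LGR6 siRNAs, against 5 with Tax siRNA.

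Histones H2A, H2B, H3 and H4 form the core of the nucleosome, and H1 binds the linker DNA between nucleosomes. Most clustered genes lack introns, are transcribed mainly while DNA is being copied, and end their mRNA at a stem-loop in place of a poly(A) tail. The stem-loop is bound by SLBP, which takes part in processing and translation of the mRNA. Some clustered genes are also known to give polyadenylated transcripts. The libraries were made with a kit that captures poly(A) mRNA, so each value is the level of the RNA captured and not of all the gene's mRNA. Differences in level between members, lines or siRNAs therefore cannot be told apart from differences in the share of transcripts with a poly(A) tail.

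Library totals ranged from 25546438 to 28987906 reads, and members took 0.00775% to 0.0219% of them. Of the 64 members, 32 had at most 10 reads in every library and 22 had 0 in at least 1. The test filter of at least 10 reads in at least 2 libraries kept 30 members (3 H1, 9 H2A, 11 H2B, 2 H3 and 5 H4) among 14481 tested genes. Rows were identical in every library for HIST2H2AA3 and HIST2H2AA4, for HIST2H4A and HIST2H4B, and for HIST2H3A and HIST2H3C, so the tested members hold 28 distinct rows. Epithelial keratin KRT8 stood at 1451.49 to 3693.61 TPM in HCC15 and 275.57 to 388.95 TPM in A427, and the T-cell gene CD3E and fibroblast gene DCN were listed at 0 in every library. The lung transcription factor NKX2-1 was at most 0.11 TPM and SFTPB was listed at 0 throughout. The leukocyte gene PTPRC was listed at 0 in HCC15 and lay between 1.22 and 1.58 TPM in A427. The part of these in the results was not tested.

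The stem-loop that defines this mRNA family was searched for in the GENCODE 29 transcripts (GRCh38), on the transcript strand. A match to the histone stem-loop consensus occurred in an annotated transcript of 31 of 64 members (48.4%), against 129 of 58721 genes (0.22%). These 6 examples carry the forms found in the members with the larger values, with the stem and loop in capitals and 5 bases on either side in lower case.
HIST2H2BE (chromosome 1): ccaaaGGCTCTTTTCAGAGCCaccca
HIST1H2BD (chromosome 6): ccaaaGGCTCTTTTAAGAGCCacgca
HIST1H2AG (chromosome 6): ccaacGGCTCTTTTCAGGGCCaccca
HIST1H3H (chromosome 6): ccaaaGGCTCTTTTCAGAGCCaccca
HIST1H4H (chromosome 6): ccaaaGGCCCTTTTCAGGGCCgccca
HIST2H4A (chromosome 1): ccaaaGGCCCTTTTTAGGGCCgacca
The form in HIST2H2BE was the most frequent, found in 16 members (6 H2A, 7 H2B and 3 H3), while the forms in HIST1H4H and HIST2H4A occurred in 5 and 3 members, all H4. In 23 members an annotated transcript continued at least 100 bases past the stem-loop, as in HIST2H2BE, where it ran 1729 bases further. Those 23 had a median mean TPM of 5.38, and 13 passed the read filter. In 8 members no annotated transcript holding the match ran 100 bases past it, as in HIST1H2BD with 39 bases. Transcripts without the match were not measured in this way, and the longest annotated transcript of HIST1H2BD has 789 bases. The median mean TPM of the 8 was 7.48. The other 33 had no match in an annotated transcript, with a median of 1.04 TPM and a range of 0.025 to 314 TPM. They include HIST1H2BK and all 6 H1 members, and no match says only that these letters are not in the annotated sequence. The lengths behind the deposited TPM differ from these transcripts. HIST2H2BE and HIST1H4H have longest annotated transcripts of 2194 and 2163 bases. In the deposited values the effective length of HIST2H2BE was 11.9 times that of HIST1H4H. The medians above therefore need not describe reads from the transcripts that continue.

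Promoters from RefSeq (GRCh38.p14), covering 250 bases before to 50 after the start, were matched for 53 members. HIST1H2AH, HIST1H3B, HIST1H3C, HIST1H3I, HIST1H3J, HIST1H4A, HIST1H4C, HIST2H2AA3, HIST2H2AA4, HIST2H2BA and HIST2H2BC had no entry. The first word searched, on both strands, was the TATA box form TATAAA, the second the box named CCAAT, and the third the octamer ATTTGCAT; no word contains another. The TATA form occurred in 66% of the 53 and in 11.5% of all 35116 promoters. The CCAAT box occurred in every matched H1, H2A, H2B and H3 promoter and in 18.2% of H4 promoters, against 34.6% of all promoters. The octamer was found in 76.9% of H2A, 73.3% of H2B and 12.5% of H3 promoters, in none of the 6 H1 or 11 H4 promoters, and in 1.77% of all. The H3 match was HIST1H3D, whose entry is the same stretch as that of the H2A gene HIST1H2AD. These words are descriptions of sequence, and binding was not measured. The promoters of the 3 members on which the results below turn follow, with the words in capitals on either strand.
HIST2H2BE (chr1:149886633-149886932, minus strand): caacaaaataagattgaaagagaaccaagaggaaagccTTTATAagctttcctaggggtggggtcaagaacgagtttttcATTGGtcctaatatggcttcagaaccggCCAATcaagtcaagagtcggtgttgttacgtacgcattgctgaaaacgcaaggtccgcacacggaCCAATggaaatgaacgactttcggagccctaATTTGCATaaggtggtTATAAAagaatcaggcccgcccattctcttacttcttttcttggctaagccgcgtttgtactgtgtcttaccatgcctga
HIST1H2BK (chr6:27146809-27147108, minus strand): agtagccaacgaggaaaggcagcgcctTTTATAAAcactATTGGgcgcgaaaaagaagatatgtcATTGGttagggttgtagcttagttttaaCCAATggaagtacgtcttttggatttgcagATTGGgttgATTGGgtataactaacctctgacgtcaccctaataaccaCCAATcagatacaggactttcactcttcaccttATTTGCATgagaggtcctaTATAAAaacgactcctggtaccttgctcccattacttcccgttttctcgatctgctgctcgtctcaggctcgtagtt
HIST1H1C (chr6:26056421-26056720, minus strand): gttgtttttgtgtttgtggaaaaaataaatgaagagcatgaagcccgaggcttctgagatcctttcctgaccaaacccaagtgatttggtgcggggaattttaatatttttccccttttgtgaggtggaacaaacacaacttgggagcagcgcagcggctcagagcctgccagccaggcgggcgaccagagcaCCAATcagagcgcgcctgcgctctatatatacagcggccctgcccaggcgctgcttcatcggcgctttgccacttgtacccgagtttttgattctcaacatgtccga
The H2B promoters hold all 3 words, while that of HIST1H1C holds the CCAAT box alone.

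Levels were dominated by 1 gene, HIST1H2BK, which encodes an H2B protein. On the TPM scale, which divides by gene length, it stood at 530.01 with siRNA 2, 442.73 with siRNA 4 and 452.84 with Tax siRNA in HCC15, against 100.42, 192.99 and 163.06 in A427. Every HCC15 library was above every A427 library. It held 72.4%, 74.5% and 66.6% of all reads on clustered histone genes in HCC15 with siRNA 2, siRNA 4 and Tax siRNA, against 39.9%, 51.4% and 39.9% in A427. The next H2B member was HIST1H2BD, at 35.33, 26.21 and 30.71 TPM in HCC15 and 13.13, 20.21 and 30.93 TPM in A427, in the same order of siRNAs. HIST2H2BC, classed as a pseudogene, had 16.47, 15.04 and 21.81 TPM in HCC15 and 13.92, 18.89 and 26.79 TPM in A427. In both lines HIST2H2BC was highest with Tax siRNA.

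In class H1, HIST1H1C, which encodes linker histone H1.2, had 60.66 TPM with siRNA 2, 20.86 with siRNA 4 and 53.69 with Tax siRNA in HCC15. In A427 it had 64.45, 40.97 and 64.49 TPM in that order. The siRNA 4 library was the lowest in both lines. HIST1H1E, for H1.4, averaged 2.06 TPM over the 6 libraries, and HIST1H1B, for H1.5, averaged 2.01 TPM. HIST1H1E had 2.77, 1.87 and 2.79 TPM in HCC15 and 1.81, 0.65 and 2.44 TPM in A427. HIST1H1B had 4.37, 1.73 and 3.4 TPM in HCC15 and 1.1, 0.13 and 1.33 TPM in A427, the last from 1 read with siRNA 4. Both genes were lowest with siRNA 4 in each line, at few reads, and HIST1H1A, HIST1H1D and the testis gene HIST1H1T never passed 3 reads.

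Class H2A had several members at similar levels. HIST2H2AA3, with the same values for HIST2H2AA4, had 13.05, 7.72 and 14.59 TPM in HCC15 with siRNA 2, siRNA 4 and Tax siRNA, and 13.08, 18.41 and 17.03 TPM in A427. HIST1H2AC had 9.7, 11.5 and 13 TPM in HCC15 and 5.22, 11.18 and 13.24 TPM in A427. The lines overlapped for both genes. Class H3 was led by HIST1H3H at 12.64, 9.51 and 15.72 TPM in HCC15 and 2.42, 3.14 and 3.15 TPM in A427. HIST1H3D averaged 1.99 TPM and HIST1H3E 1.27 TPM, and HIST1H3E was listed at 0 in all 3 HCC15 libraries. H3 members code for core histone H3, and only HIST1H3H and HIST1H3D passed the read filter.

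Class H4, whose members encode 1 common core histone, was low throughout. HIST1H4H had 6.1, 8.18 and 9.58 TPM in HCC15 with siRNA 2, siRNA 4 and Tax siRNA, and 4.77, 4.54 and 6.19 TPM in A427. HIST2H4A, the same as HIST2H4B in every library, had 5.79, 6.1 and 5.6 TPM in HCC15 and 2.96, 5.63 and 6.23 TPM in A427. The median of mean TPM over class members was 1.11 for H1, 4.05 for H2A, 4.55 for H2B, 0.756 for H3 and 1.76 for H4. Length alters how reads translate into TPM here: from the deposited counts and TPM, the effective length of HIST2H2BE was 11.9 times and that of HIST1H2BK 3.75 times that of HIST1H4H. The median member for which this could be estimated was 1.57 times as long as HIST1H4H. HIST2H2BE came 2nd of all members by its highest read count. By mean TPM it stood at 10.4, as did HIST1H2BN, below the H2B members HIST1H2BK, HIST1H2BD and HIST2H2BC.

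**Figure D1:**
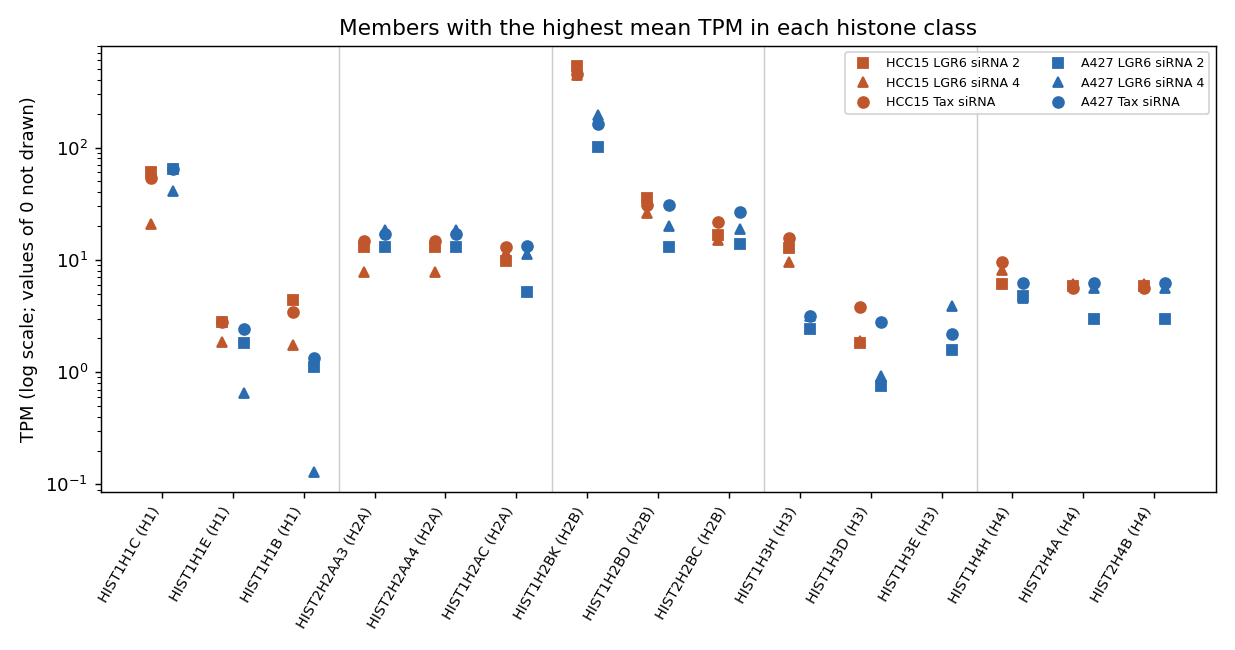
TPM (log axis) of the 3 members with the highest mean TPM in each class, with HCC15 libraries (orange) left of A427 libraries (blue) and a marker shape for each siRNA. HIST1H2BK stands above all others, between 442.73 and 530.01 TPM in HCC15 and 100.42 and 192.99 TPM in A427, and values of 0 (HIST1H3E in HCC15) are not drawn.

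Many clustered histone genes lie head to head, with starts close together on opposite strands, and partners often differed in level. Only the 53 members with a matched promoter could form a pair. Among them were 10 pairs whose starts lie in opposite directions within 500 bases, 9 of them an H2A with an H2B gene. Members without a promoter entry, HIST1H2AH among them, are left out, and HIST1H2BK was in no pair. In these 10 pairs the mean TPM of the higher partner was 1.06 to 18.5 times that of the lower, with a median of 1.69. Ratios in pairs with an unmatched member were not examined. The lowest ratio was for HIST1H2BF (2.11 TPM) with HIST1H3D (1.99 TPM), the pair that is not H2A with H2B. The start taken for HIST1H3D is also that of the H2A gene HIST1H2AD (0.557 TPM). This pair may therefore be HIST1H2BF with HIST1H2AD, and the counts, range and median given take HIST1H3D as the partner. In 3 pairs it was over 3 times: HIST3H2A at 10.2 TPM with HIST3H2BB at 0.55 TPM, HIST1H2BN at 10.4 with HIST1H2AK at 1.44, and HIST2H2BE at 10.4 with HIST2H2AC at 1.64. The promoter printed above for HIST2H2BE holds the 234 bases between its start and that of HIST2H2AC.

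Between HCC15 and A427, 16 of the 30 tested members were called (53.3%), against 76.5% of all tested genes. Of these members, 14 were higher in HCC15 (46.7%), where 37.2% of all tested genes were called higher. Of the same members, 2 were lower (6.67%), where 39.3% of all genes were called lower (edgeR quasi-likelihood test, adjusted p under 0.05). The members' median log2 fold change was 0.74, against -0.03 for all genes. The read filter touches this result, because 8 members passed it through HCC15 alone and none through A427 alone. Of the 22 that had the reads in each line, 8 were called higher (36.4%), a share near that of all genes, and 2 lower (9.09%), with a median of 0.32. In 11 members every HCC15 library was above every A427 library and in 2 every one was below, against 32.7% and 35.3% of all genes. The filter touches this count too. Of those 11, HIST1H1B, HIST1H2AI, HIST1H2AL, HIST1H2BL and HIST1H2BO passed it through HCC15 alone. HIST1H2AG, HIST1H2AM, HIST1H2BJ, HIST1H2BK, HIST1H2BN and HIST1H3H had the reads in each line.

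The members higher in HCC15 were 7 of 11 H2B, 3 of 9 H2A, 2 of 2 H3, 1 of 3 H1 and 1 of 5 H4. Without the 8 members that passed the filter through HCC15 alone they were 5 of 9 H2B, 2 of 7 H2A, 1 of 1 H3, 0 of 2 H1 and 0 of 3 H4. HIST1H2BK had 4600.11, 3886.93 and 3899.53 reads with siRNA 2, siRNA 4 and Tax siRNA in HCC15, against 789.77, 1618.34 and 1462.53 in A427. Its log2 fold change was 1.78 (SE 0.19, edgeR adjusted p = 3.69e-05). HIST1H2BK shares 22.6% of its 50-base words with other members. HIST1H2BN, an H2B gene, had 59.55, 52.39 and 57.85 reads in HCC15, against 5.37, 20.77 and 10.38 in A427, a log2 fold change of 2.29 (SE 0.37, edgeR adjusted p = 0.000493). Both genes were higher in every HCC15 library than in any A427 library.

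HIST1H2BJ, another H2B gene, had 43.08, 35.1 and 55.06 reads in HCC15 with siRNA 2, siRNA 4 and Tax siRNA, against 8, 11.01 and 14.04 in A427. The log2 fold change was 2.05 (SE 0.29, edgeR adjusted p = 0.000232). HIST1H2BO, also H2B, had 24, 28.02 and 33.01 reads in HCC15, against 2, 6 and 4 in A427, with a fitted log2 fold change of 2.85 (SE 0.40, edgeR adjusted p = 0.000199). HIST1H2BO passed the read filter through HCC15 alone, which favours a higher value in HCC15, so its value is a description. HIST1H3H, coding for H3, had 46, 35 and 57 reads in HCC15, against 8, 11 and 12 in A427, with a log2 fold change of 2.19 (SE 0.30, edgeR adjusted p = 0.000187). Neither HIST1H2BJ nor HIST1H3H, which had the reads in both lines, overlapped between the lines.

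HIST1H2AI, an H2A gene, had 56.48, 29.87 and 96.42 reads in HCC15 with siRNA 2, siRNA 4 and Tax siRNA, against 2.6, 13 and 4.78 in A427. Its log2 fold change was 3.12 (SE 0.50, edgeR adjusted p = 0.000463). It shares 62.3% of its 50-base words with another member, so reads could be split between them, and it too passed the read filter through HCC15 alone. The remaining members called higher were HIST1H1B, HIST1H2AM, HIST1H2BL, HIST1H2AG, HIST1H3D, HIST1H2BC and HIST1H2BD, with log2 fold changes of 0.77 to 1.95, and HIST1H4J. HIST1H1B, HIST1H2BL, HIST1H3D and HIST1H4J passed the filter through HCC15 alone. The call for HIST1H3D was lost in DESeq2 (adjusted p = 0.201) and without any 1 of the 6 libraries (adjusted p 0.0506 to 0.113). That for HIST1H2BC was lost in DESeq2 (adjusted p = 0.259), with no filter but 1 read (adjusted p = 0.0525) and without any 1 library but the siRNA 4 library of HCC15 (adjusted p 0.0525 to 0.214). HIST1H2BL lost its call in DESeq2 (adjusted p = 0.14) and without the Tax library of HCC15 or of A427 (adjusted p 0.104 and 0.114). HIST1H2BD lost its call without the siRNA 2 library of HCC15 or of A427 (adjusted p 0.0909 and 0.0898) and in limma on log2(TPM + 1) or log2(TPM + 0.1) (adjusted p 0.0632 and 0.0718). HIST1H4J is uncertain: it had 0 reads in every A427 library, and in HCC15 it had 12 with siRNA 2, 0 with siRNA 4 and 9.79 with Tax siRNA. Its neighbour in sequence, HIST1H4K, shares all of its 50-base words with 1 other member and had 0, 19 and 11.21 reads in the same HCC15 libraries. Counted together they had 12, 19 and 21 reads in HCC15, against 6, 12 and 7 in A427. Alone, HIST1H4J came to 7.5-fold higher in HCC15 when 3 reads were counted over the A427 libraries. That value takes the 21.79 reads over the HCC15 libraries as exact, so it is a description and not a bound. With HIST1H4J at that value the members' median stayed at 0.74.

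Against this direction, HIST2H2BE, a long H2B transcript from the HIST2 cluster, was lower in HCC15. It had 92.75, 171.92 and 233.27 reads in HCC15 with siRNA 2, siRNA 4 and Tax siRNA, against 171.87, 427.15 and 613.12 in A427. The libraries overlapped between lines, but for each siRNA the HCC15 value was the lower. The log2 fold change was -1.17 (SE 0.15, edgeR adjusted p = 0.000106). HIST1H2BG, also H2B, had 15, 20 and 18 reads in HCC15, against 29, 23 and 59 in A427, with a log2 fold change of -0.97 (SE 0.34, edgeR adjusted p = 0.0271). That call was lost without the Tax or the siRNA 2 library of either line (adjusted p 0.079 to 0.292) and in DESeq2 (adjusted p = 0.197). HIST1H1C did not pass (log2 fold change -0.32, SE 0.17, edgeR adjusted p = 0.12).

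**Figure D2:**
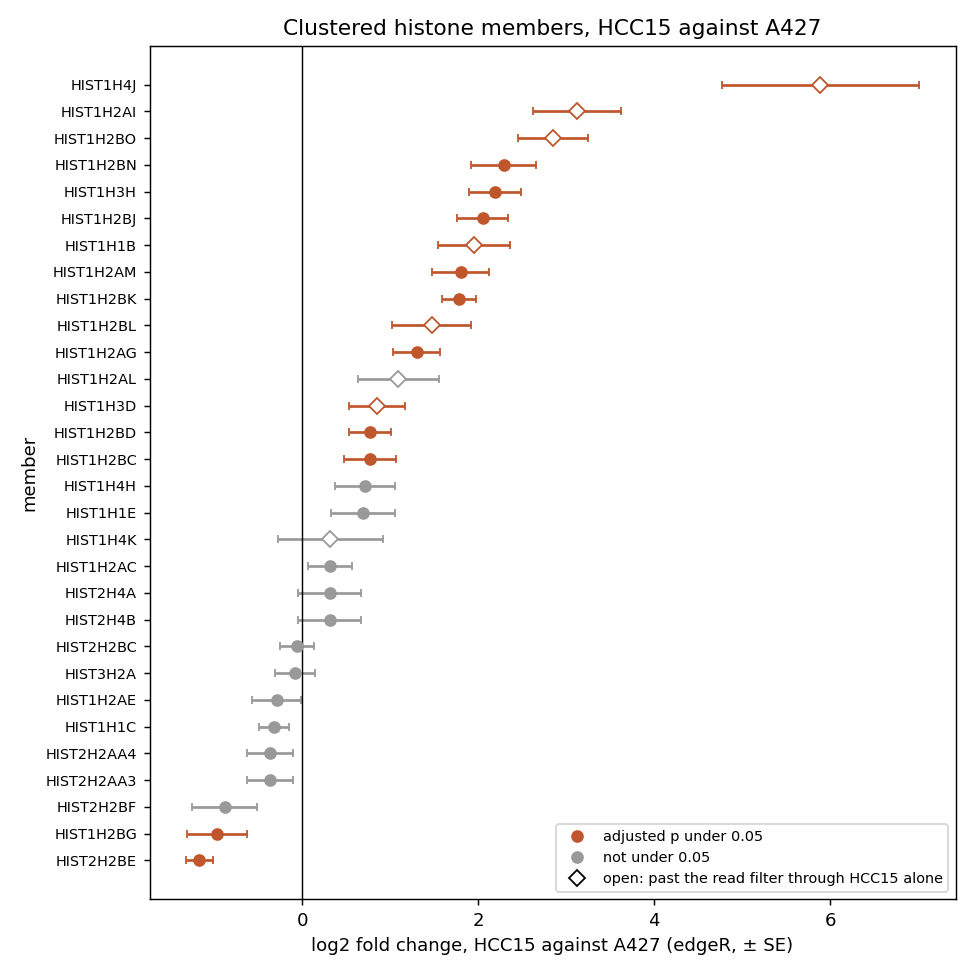
Log2 fold change of HCC15 against A427 (x axis, edgeR, bars are SE) for the 30 tested members. Orange marks an adjusted p under 0.05 and open diamonds the 8 members that passed the read filter through HCC15 alone, and the called values run from -1.17 for HIST2H2BE upward, with 14 above 0 and 2 below.

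Among 5 lists of other histone genes and their regulators, 58 of 85 entries were called between the lines (68.2%), in both directions, against 76.5% of all genes. Of 11 tested genes listed as replication-independent histones, most of them polyadenylated and not confined to the time of DNA copying, 3 were higher and 5 lower in HCC15. Their median log2 fold change was -0.26, and their values too are of the RNA captured. H1F0, the linker histone H1.0, had 74.5, 58.8 and 67.2 CPM in HCC15 with siRNA 2, siRNA 4 and Tax siRNA, against 354, 300 and 278 in A427 (log2 fold change -2.22, SE 0.10, edgeR adjusted p = 3.12e-07). H2AFJ was also lower, with a log2 fold change of -1.83 (SE 0.12, edgeR adjusted p = 1.97e-06). H2AFX, the H2A variant phosphorylated at DNA breaks, was higher, at 1.5 (SE 0.11, edgeR adjusted p = 3.4e-06). Of 19 genes for histone mRNA 3′ processing and decay 7 were higher and 3 lower. For 10 genes listed as histone transcription regulators these were 5 and 3, for 20 chaperones 11 and 4, and for 25 S-phase genes 11 and 6. The medians of these lists were 0.13, 0.31, 0.35 and 0.16 in that order. SLBP itself did not pass (0.13, SE 0.09, edgeR adjusted p = 0.238), while NPAT, the cofactor for histone gene transcription, was higher (0.89, SE 0.11, edgeR adjusted p = 7.47e-05).

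With LGR6 siRNA 2, HIST2H2BE was lower than with Tax siRNA in both lines. It stood at 3.25 CPM with siRNA 2 against 8.87 with Tax siRNA in HCC15, and at 6.55 against 21 in A427. The siRNA 2 value was the lowest of its line in both. The log2 fold change over both lines was -1.58 (SE 0.18, edgeR adjusted p = 0.00455), and within a line the CPM ratio was 0.367 in HCC15 and 0.312 in A427. It was the 1 member of 30 called lower, where 4.66% of all genes were called lower, and none was called higher, where 2.96% of all genes were. The call was lost without the Tax library of A427 (adjusted p = 0.0701) or of HCC15 (adjusted p = 0.0891).

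The other members showed mostly negative values that did not pass. Of the 30, 25 had a negative log2 fold change with siRNA 2, where 51.8% of all genes did. The members' median was -0.45, against -0.01 for all genes. By class the medians were 0.02 for H1, -0.34 for H2A, -0.50 for H2B, -0.91 for H3 and -0.49 for H4. Those of H2A and H4 are the values of the identical pairs HIST2H2AA3 with HIST2H2AA4 and HIST2H4A with HIST2H4B, each counted as 2 members. HIST1H3D, an H3 gene, had 17.68 reads with siRNA 2 against 36.65 with Tax siRNA in HCC15, and 6.65 against 28.47 in A427 (log2 fold change -1.40, SE 0.38, edgeR adjusted p = 0.0622). HIST2H2BC had -0.73 (SE 0.23, edgeR adjusted p = 0.0986).

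With siRNA 4 the called member was another gene, HIST1H1C. It stood at 5.92 CPM with siRNA 4 against 14.6 with Tax siRNA in HCC15, and at 10.3 against 16.5 in A427. The log2 fold change was -0.95 (SE 0.21, edgeR adjusted p = 0.0246), and it was the 1 member of 30 called lower, where 7.95% of all genes were called lower. No member was called higher, where 4.58% of all genes were. The call was lost without the Tax library of A427 (adjusted p = 0.138) or of HCC15 (adjusted p = 0.267), or the siRNA 4 library of HCC15 (adjusted p = 0.172). The other tested H1 members had log2 fold changes of -1.31 for HIST1H1B (SE 0.52, edgeR adjusted p = 0.137) and -1.02 for HIST1H1E (SE 0.46, edgeR adjusted p = 0.181), neither past the test. The replication-independent linker histones H1F0 and H1FX had -0.04 (SE 0.12, edgeR adjusted p = 0.863) and -0.05 (SE 0.13, edgeR adjusted p = 0.838).

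With siRNA 4, 21 of the 30 members had a negative log2 fold change, where 50.6% of all genes did. The members' median was -0.32, against -0.01 for all genes. The class medians were -1.02 for H1, -0.20 for H2A, -0.42 for H2B, -0.84 for H3 and 0.01 for H4. That of H4 is the value of HIST2H4A and HIST2H4B, and its sign rests on counting their identical rows as 2 members. HIST1H3D had 19 reads with siRNA 4 against 36.65 with Tax siRNA in HCC15, and 8.74 against 28.47 in A427 (log2 fold change -1.17, SE 0.37, edgeR adjusted p = 0.0769). HIST2H2BE had -0.42 (SE 0.17, edgeR adjusted p = 0.143). Both siRNA comparisons use the same Tax libraries, so their directions are not independent of each other.

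**Figure D3:**
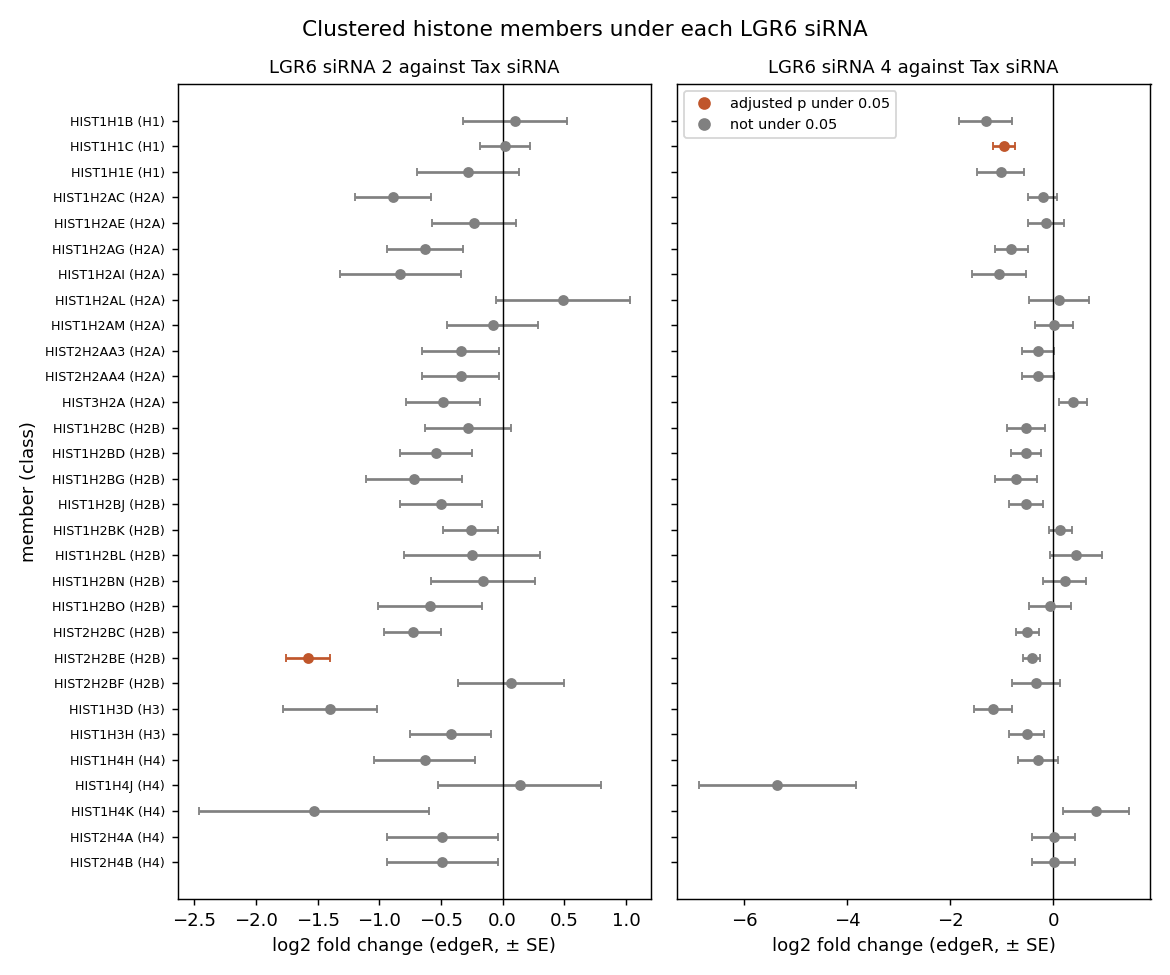
Log2 fold change (x axes, edgeR, bars are SE) of the 30 tested members under LGR6 siRNA 2 (left panel) and LGR6 siRNA 4 (right panel), each against Tax siRNA, in order of class; the 2 panels have different x scales. Orange marks the single call in each, HIST2H2BE at -1.58 and HIST1H1C at -0.95, and HIST1H4J, far to the left with siRNA 4, had 0 reads in every A427 library and in HCC15 with siRNA 4.

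Set directly against each other, the siRNAs gave 2 called members, HIST2H2BE and HIST1H1C. HIST2H2BE was higher with siRNA 4 than with siRNA 2, with a log2 fold change of 1.15 (SE 0.19, edgeR adjusted p = 0.00616), at 6.7 against 3.25 CPM in HCC15 and 15.5 against 6.55 CPM in A427. HIST1H1C was lower with siRNA 4, with a log2 fold change of -0.97 (SE 0.21, edgeR adjusted p = 0.0187), at 5.92 against 15.3 CPM in HCC15 and 10.3 against 16.1 CPM in A427. The call for HIST1H1C was lost without the siRNA 2 library of HCC15 (adjusted p = 0.131) or its siRNA 4 library (adjusted p = 0.144). These were 1 member higher and 1 lower of 30, where 7.7% of all genes were called higher and 8.84% lower. The members' median was 0.06, against 0 for all genes.

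**Figure D4:**
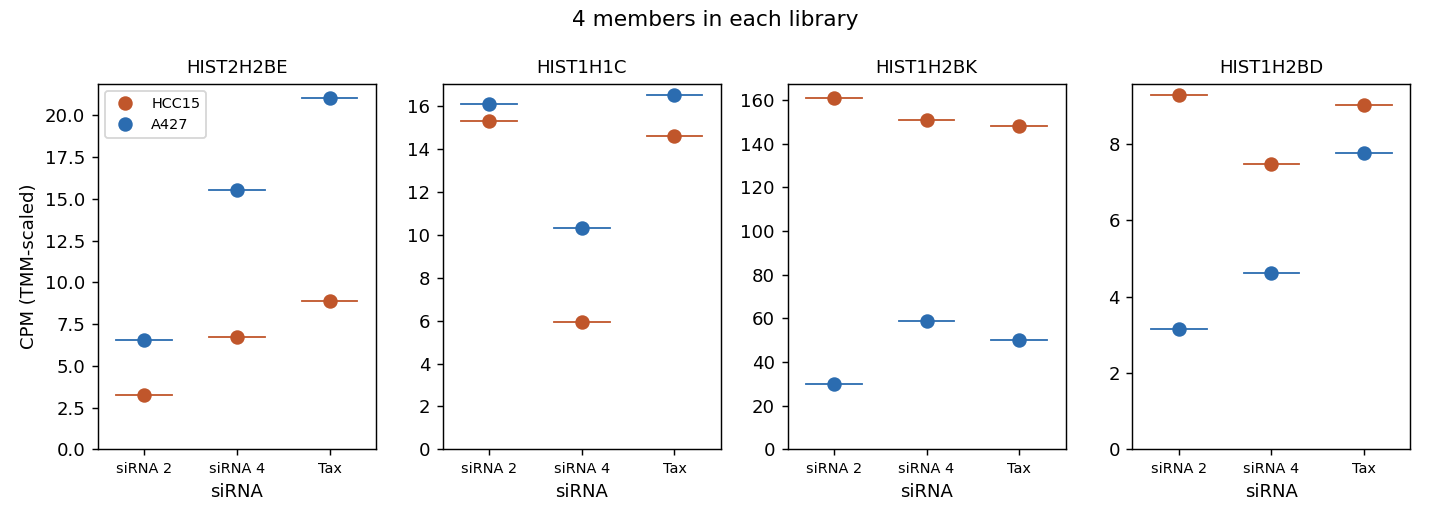
CPM of 4 members in each library, with HCC15 in orange and A427 in blue and the siRNAs along the x axis. HIST2H2BE is lowest with siRNA 2 (3.25 and 6.55 CPM), HIST1H1C with siRNA 4 (5.92 and 10.3 CPM), and HIST1H2BK and HIST1H2BD are low with siRNA 2 in A427 (30.1 and 3.16 CPM) beside 161 and 9.27 CPM in HCC15.

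For both LGR6 siRNAs together against Tax siRNA, no member passed, and 0% of all genes were called higher and 0% lower in edgeR; 3 members and 1512 genes had an unadjusted p under 0.05. When each LGR6 siRNA had its own term (the replicate block), 2 members passed, both lower. They were HIST2H2BE at -1 (SE 0.15, edgeR adjusted p = 0.00836) and HIST1H3D at -1.28 (SE 0.31, edgeR adjusted p = 0.0422). The share of all genes called with the block is not given here, so whether members passed more often was not tested. For HIST2H2BE the value came mainly from siRNA 2, at -1.58 (edgeR adjusted p = 0.00455), against -0.42 with siRNA 4 (edgeR adjusted p = 0.143). HIST1H3D had -1.4 and -1.17, neither past the test alone. Without the block HIST1H3D had -1.31 (SE 0.31, edgeR adjusted p = 0.259) and HIST2H2BE -0.88 (SE 0.40, edgeR adjusted p = 0.528). The median of the members was -0.40, against -0.01 for all genes, with 24 of 30 negative, where 51.3% of all genes were.

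Within a line each siRNA is set against 1 Tax library, so there is no replicate check, and the intervals given cover counting error only. Counts over 2-fold use log2 ratios with 0.5 CPM added to each value, and with 0.1 CPM added more members with few reads passed. In HCC15 with siRNA 2, HIST2H2BE was the 1 member over 2-fold lower, where 2.42% of all genes were, and none was over 2-fold higher, where 1.31% were. With 0.1 CPM added HIST1H3D and HIST1H4K joined it, 3 members where 3.34% of all genes were lower. In A427 with siRNA 2, 3 members were over 2-fold lower, where 1.94% of genes were, and none higher, where 0.697% were. These 3 were HIST2H2BE, HIST1H2BD and HIST1H2AC, and with 0.1 CPM added HIST1H2AG and HIST1H3D made 5, where 3.78% of all genes were lower. HIST1H2BD had 264.44 reads with siRNA 2 against 237 with Tax siRNA in HCC15, and 83 against 226.7 in A427, CPM ratios of 1.03 and 0.408. HIST1H2BK had ratios of 1.09 (counting interval 1.04 to 1.14) in HCC15 and 0.601 (0.551 to 0.656) in A427.

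With siRNA 4 in HCC15, 2 members were over 2-fold lower, where 5.19% of all genes were, and none higher, where 1.6% were. They were HIST1H1C, at 152 against 384 reads, and HIST1H2AI, at 29.87 against 96.42 reads, with HIST1H4J added at the 0.1 CPM offset (3 members, where 7.46% of all genes were lower). In A427 with siRNA 4 no member was over 2-fold lower or higher, where 2.47% and 0.615% of all genes were. With 0.1 CPM added, 5 were lower there (HIST1H1B, HIST1H1E, HIST1H2AG, HIST1H2BG and HIST1H3D, where 3.89% of all genes were) and HIST1H2AI was higher (1 member, where 1.14% were). The largest value there among members with at least 50 reads in both libraries was for HIST1H2BD, at a log2 ratio of -0.69. The difference between lines in the response to both siRNAs was tested by an interaction term: no member passed in edgeR, 0% of all genes were higher and 0% lower, and 0 members and 78 genes had an unadjusted p under 0.05. HIST1H2BD had 0.89 there (SE 0.54, edgeR adjusted p = 1) and HIST1H2BK 0.25 (SE 0.59, edgeR adjusted p = 1), so a line difference is not shown for either. For siRNA 2 alone it could not be tested, with 1 library per line and siRNA.

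Summed over all 64 members, reads came to 223, 203 and 223 CPM in HCC15 with siRNA 2, siRNA 4 and Tax siRNA, against 75.5, 114 and 126 CPM in A427. HIST1H2BK set most of that gap between the lines. The other 63 members summed to 61.4, 51.8 and 74.5 CPM in HCC15 and 45.3, 55.6 and 75.4 CPM in A427. The Tax libraries of the lines were close in this sum, with exact Poisson 95% intervals of 71.2 to 77.9 CPM in HCC15 and 72.3 to 78.6 CPM in A427. Relative to Tax siRNA, the sum without HIST1H2BK was 0.824 (0.773 to 0.88) with siRNA 2 and 0.695 (0.647 to 0.745) with siRNA 4 in HCC15. In A427 it was 0.601 (0.56 to 0.645) and 0.736 (0.69 to 0.787).

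By class, the H1 sum was 1.06 and 0.427 of Tax siRNA in HCC15 with siRNA 2 and siRNA 4, and 0.966 and 0.608 in A427, nearly all of it HIST1H1C. The H2B sum without HIST1H2BK was 0.736 and 0.797 in HCC15 and 0.401 and 0.698 in A427. H2A came to 0.793 and 0.717 in HCC15 and 0.662 and 0.977 in A427. H3 came to 0.697 and 0.643 in HCC15 and 0.598 and 0.768 in A427, and H4 to 0.861 and 1 in HCC15 and 0.835 and 0.913 in A427. H4 was the class with every ratio's interval reaching 1, on 60 to 90 reads per library.

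**Figure D5:**
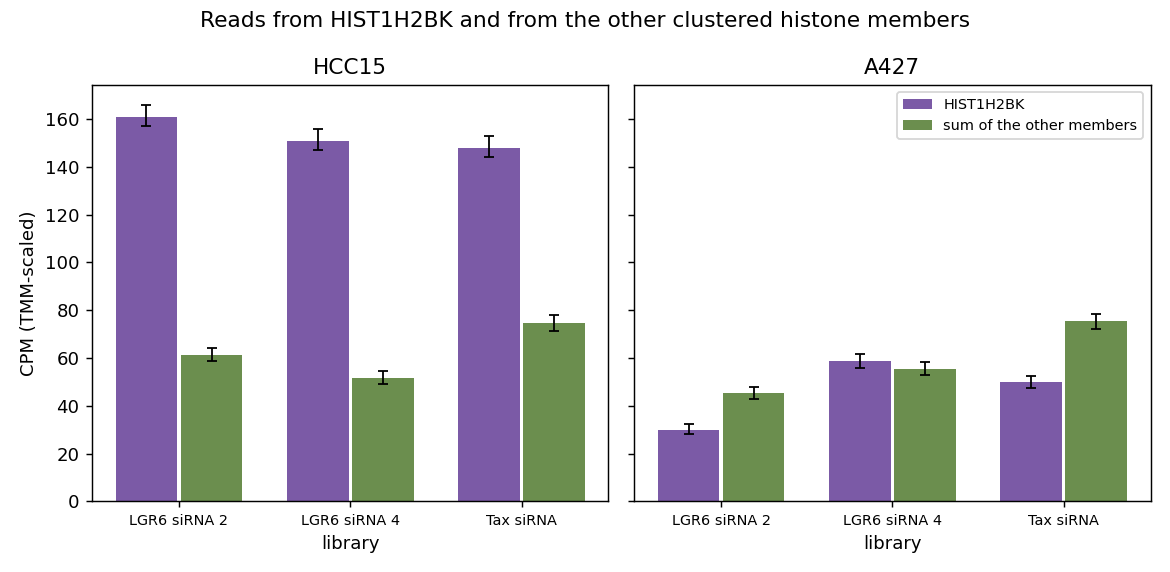
TMM-scaled CPM of HIST1H2BK (purple) and of the other 63 members summed (green) in each library, with HCC15 at left and A427 at right; bars carry exact Poisson 95% intervals for counting error. HIST1H2BK reads 148 to 161 CPM in HCC15 and 30.1 to 58.7 CPM in A427, while the other members sum to 45.3 to 75.4 CPM in all 6 libraries.

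In the same 5 lists, 5 of 85 entries were called with siRNA 2 (5.88%, against 7.62% of all genes) and 9 with siRNA 4 (10.6%, against 12.5%). With siRNA 2, H2AFZ, the variant H2A.Z, was lower, at 113 against 232 CPM in HCC15 and 164 against 274 CPM in A427 (log2 fold change -0.88, SE 0.14, edgeR adjusted p = 0.0111). It was the 1 call among 11 replication-independent histones, whose median was 0.02. UBN1, a subunit of the HIRA histone chaperone complex, was lower (-0.80, SE 0.13, edgeR adjusted p = 0.0107), the 1 call of 20 chaperones (median 0.08). ERI1, an exonuclease of histone mRNA decay, was higher (0.57, SE 0.14, edgeR adjusted p = 0.0482), the 1 call of 19 processing and decay genes (median 0.07). CDC25A was the 1 call of 10 genes listed as transcription regulators, higher at 0.90 (SE 0.15, edgeR adjusted p = 0.012), with a median of 0.15. Of 25 S-phase genes, UHRF1 alone was called, higher at 0.61 (SE 0.15, edgeR adjusted p = 0.0452), and the list median was -0.04.

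With siRNA 4, CCNE2, the S-phase cyclin E2, was lower, at 8.61 against 23.2 CPM in HCC15 and 5.11 against 14.3 CPM in A427 (log2 fold change -1.45, SE 0.17, edgeR adjusted p = 0.00204). It and GMNN, the replication licensing inhibitor geminin (-0.83, SE 0.12, edgeR adjusted p = 0.00531), were the 2 calls of 10 genes listed as transcription regulators (median 0.02). Geminin's role given here is in replication licensing, so these are not 2 regulators of histone transcription. Among 25 S-phase genes CCNA2 and PRIM1 were lower and UHRF1 higher, with log2 fold changes of -0.65, -0.49 and 1.13 and a list median of -0.02. Among 19 processing and decay genes ZCCHC6 and ZNF473 were higher and NCBP2 lower (0.91, 0.66 and -0.52; list median 0.17). ANP32E, an H2A.Z chaperone, was the 1 chaperone called, higher at 0.49, with a median of 0.10. None of the 11 replication-independent histones was called (median 0.13). SLBP had 0.30 with siRNA 2 (SE 0.11, edgeR adjusted p = 0.155) and 0.20 with siRNA 4 (SE 0.11, edgeR adjusted p = 0.298). The part of these genes in the histone values was not tested.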

How the data were processed

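Poly(A) mRNA of 6 libraries was sequenced, 1 per line and siRNA. Per the submitters' processing notes, FastQC 0.11.1, STAR 2.5.3a and RSEM 1.3.3 were run, with build hg19. The sources used here do not name the gene models counted (not given). The tables, with RSEM expected counts and with TPM, were deposited by the authors. Expected counts need not be whole, and reads that fit several genes are divided between them, which matters for near-identical histone genes. They were rounded before testing. The TPM deposited by the authors gave levels and an alternative test.

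Testing covered genes reaching 10 reads in 2 or more libraries, with edgeR 4.0.16 (quasi-likelihood, TMM scaling, R 4.3.3), with Benjamini-Hochberg adjustment over all 14481 genes and a threshold of 0.05. HCC15 against A427 and each siRNA contrast used a fit of line plus siRNA (2 residual degrees of freedom), both siRNAs against Tax siRNA line plus arm (3), and the interaction line by arm (2). No line and siRNA was repeated, so p-values measure how far effects differ between lines or siRNAs, not a spread between replicates. Nothing in the labels says that libraries came from separate cultures. Per the labels a siRNA number names 1 reagent used in both lines, and a replicate block was also fitted. Tax libraries carry no such number, so the block pairs no LGR6 library with a Tax library. CPM are TMM-scaled, and within-line log2 ratios add 0.5 CPM. Summed-read intervals are exact Poisson at 95%. Every library pair differed beyond sampling noise, with a chi-square of at least 57 per degree of freedom. The fits were tested on simulated counts. Alternatives were RLE size factors, DESeq2 1.42.0, other read filters, limma 3.58.1 on log2(TPM + 1) and log2(TPM + 0.1), and leaving out each library.

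Named in full were the 3 members per class with the highest mean TPM, up to 6 called members per direction in each comparison, and up to 3 per direction within a line among those with at least 50 reads in both libraries. HIST1H3D, HIST1H2BD and HIST1H2BK in other comparisons, SLBP, NPAT and the H1 genes were chosen after their values were seen. The members and lists were chosen with earlier results of these data known.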

Additional observations from a re-analysis of the deposited data

How the results depend on the processing

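None of the named calls turned direction under the alternatives run. Of 16 members called between HCC15 and A427, the filter of at least 50 reads left 7 called and limma on log2(TPM + 1) gave 26, and leaving out 1 library gave 12 to 16. The genes and members tested differ between alternatives, with 13569 genes tested on TPM and 14481 in the main test. Shares of all genes called under each alternative are not given here. The counts in this paragraph therefore do not show whether members were called more or less often than other genes. For LGR6 siRNA 2 against Tax siRNA, limma on log2(TPM + 1) gave 2 members and leaving out 1 library 0 to 1. For siRNA 4 against Tax siRNA limma gave 3 and leaving out 1 library 0 to 2, with HIST1H2AI added without the A427 siRNA 4 library. For siRNA 4 against siRNA 2, limma gave 5 on log2(TPM + 1) and 7 on log2(TPM + 0.1), and leaving out 1 library gave 1 to 3. For both siRNAs against Tax siRNA the replicate block gave 2, and it is the same fit as for the single siRNA contrasts, where it therefore changed no call. The interaction gave 0 members wherever it could be fitted, and could not be fitted without a Tax library. Over 2-fold within a line, the 0.1 CPM offset gave 3 members lower with siRNA 2 in HCC15, and in A427 5 lower and 0 higher with siRNA 2 and 5 lower and 1 higher with siRNA 4. On summed TPM, the H2A sum in A427 with siRNA 4 turned to a log2 ratio of 0.01 and that of HIST1H2BK in HCC15 with siRNA 4 to -0.03, both with CPM counting intervals that span equality, and the H2B sums moved to -0.82 in A427 with siRNA 2 and to 0.15 and -0.09 in HCC15 with siRNA 2 and siRNA 4. The sums over all members moved to -0.57 in A427 with siRNA 2 and to 0.08 and -0.23 in HCC15. The causes of these moves were not tested, apart from the smaller set of genes under the stricter filter. Of 139 alternative values for named fold changes 126 kept their call and 13 lost it, among them HIST1H4J in DESeq2 (adjusted p = 0.112). Depth limits the tests: 32 members had at most 10 reads in every library, and 8 of these were called between groups under a looser filter or in limma.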
